A study of Rattus norvegicus with 9 samples.

Results

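The genes described here encode the neuronal intermediate filaments (Nefl, Nefm, Nefh, Ina and Prph), the growth cone protein Gap43, the neuronal stathmins Stmn2, Stmn3 and Stmn4, and the neuronal ubiquitin hydrolase Uchl1. They were taken as a fixed list of 10 genes, and every probe set that the array annotation assigns to them was used, which gave 14 of 31042 probe sets and 10 of 14217 named genes. Each of 9 RNA samples, 3 of rESC-RPC2, 3 of rESC-RPC1 and 3 of P-RPC, was measured on its own Affymetrix whole-genome rat expression array. Both kinds of rESC-RPCs were differentiated from 1 rat embryonic stem cell line of the DA strain, in aggregates with Matrigel and a Wnt inhibitor, and were harvested on day 16. For rESC-RPC2 the aggregates stayed in suspension until day 14 and were then digested to single cells, which adhered for the last days only. For rESC-RPC1 the aggregates were digested and plated on day 10, and the cells were given N2 medium with serum on day 14. The medium of both kinds held serum before and after plating, and rESC-RPC2 had no change to N2 medium. P-RPC came from retinas of newborn SD rats (postnatal day 1) by papain digestion, and the methods state no sort and no culture before RNA was taken. Strain, culture and cell type therefore change together in every comparison with P-RPC, and time of adherence and medium change together between rESC-RPC2 and rESC-RPC1. How many animals gave each P-RPC sample is not given in the sources used here.

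Neurofilaments are the intermediate filaments of axons, built from light, medium and heavy subunits that widen the axon as it matures, and alpha-internexin and peripherin can assemble with them. GAP-43 and the stathmins of the SCG10 family are found in growth cones, where GAP-43 is linked to the membrane cytoskeleton and stathmins bind tubulin and regulate how microtubules grow and shrink. In the retina, axon-bearing ganglion cells are the best known source of neurofilaments, which horizontal cells also contain. In bulk RNA a lower signal of such a gene can come from fewer neurons or from less RNA per neuron, and these cannot be told apart.

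The plainest pattern was between the kinds of rESC-RPCs. Ina, Gap43, Stmn2, Stmn3 and Uchl1 rose in rESC-RPC2 against rESC-RPC1, by 2.22-fold to 2.86-fold, and Nefl, Nefm and Stmn4 were 1.80-fold, 1.91-fold and 1.86-fold higher, short of the 2-fold minimum. Prph followed another pattern, one shared by 7.08% of all tested genes, which were called lower in both kinds of rESC-RPCs than in P-RPC. It was high in P-RPC and near or under the detection threshold in rESC-RPC2 and rESC-RPC1. Nefh was under the threshold on all 9 arrays. This threshold was a signal of 123, above which lay the upper 50% of values in the table, and a gene was tested when at least 3 arrays reached it. A gene was called higher or lower at an adjusted p under 0.05 from limma together with a fold change of at least 2. Of the 10 genes 9 were tested. On all 9 arrays 8 of them were above the threshold, whereas Prph reached it on 4 arrays, of which 3 were P-RPC arrays. Prph thus passed the filter through the group where it is high, so the filter itself favored a difference.

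**Figure D1:**
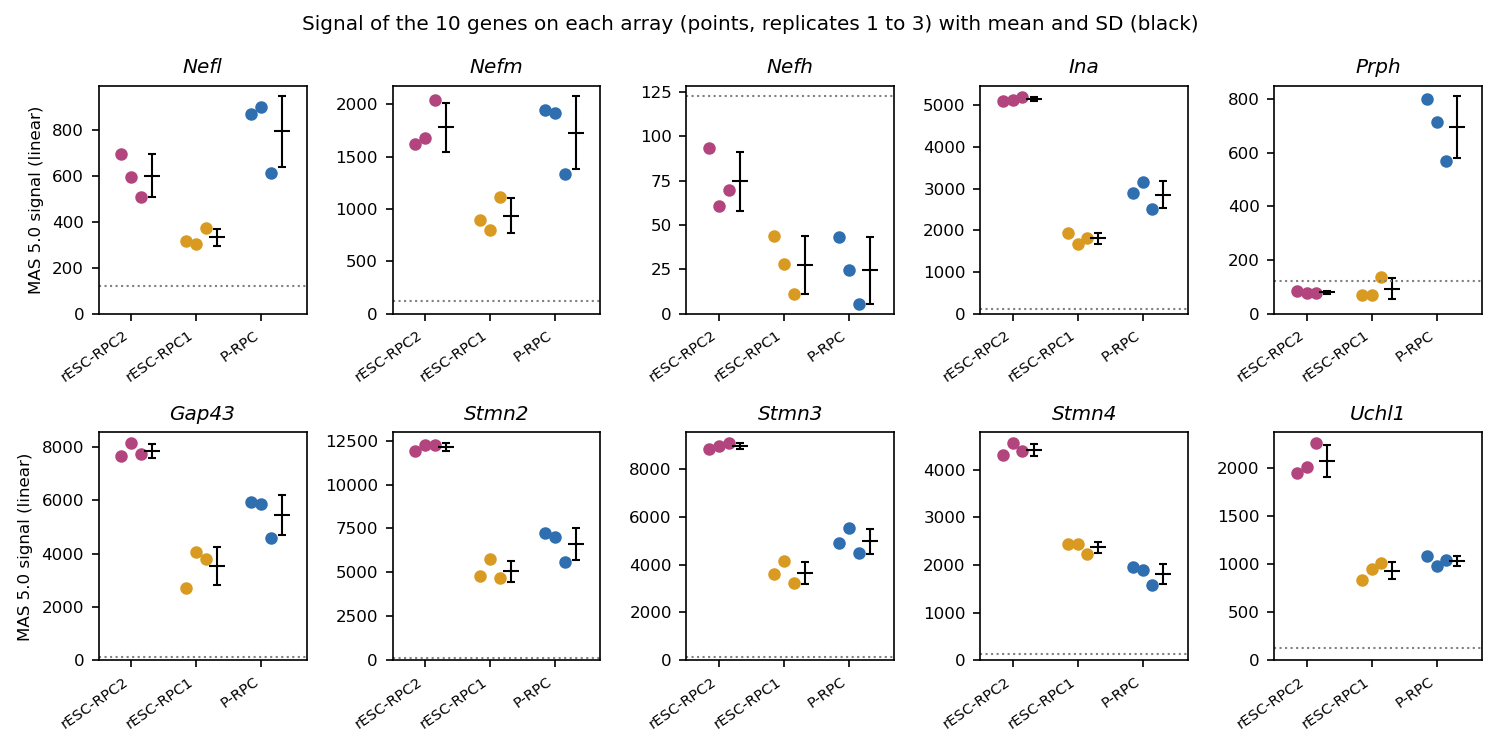
Signal of each of the 10 genes on a linear axis from 0, with 1 point per array for rESC-RPC2, rESC-RPC1 and P-RPC, the mean and SD of 3 arrays in black, and the detection threshold of 123 as a dotted line. The 3 rESC-RPC2 arrays lie above all others for Ina, Gap43, Stmn2, Stmn3, Stmn4 and Uchl1, and Prph is high in P-RPC alone.

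Promoters of 4 of the 10 genes were matched in the RefSeq promoter table (build GRCr8). They are printed to set the promoter of Prph, which was lower in both kinds of rESC-RPCs than in P-RPC, beside those of Ina, Stmn3 and Uchl1, which were higher in rESC-RPC2 than in rESC-RPC1. Each line gives the 120 bases before the transcript start used by the table, 5′ to 3′ on the strand of the gene, with matches to GGGCGG (the Sp1 box) and TATAAA (the TATA box) in capitals on either strand, so that CCGCCC and TTTATA are their reverse complements. The windows are chr7:132097169-132097288 on the plus strand for Prph, chr1:255838009-255838128 on the plus strand for Ina, chr3:188802495-188802614 on the minus strand for Stmn3 and chr14:41849418-41849537 on the minus strand for Uchl1. The starts used for Prph and Uchl1 lie 401 and 326 bases inside the annotated span of these genes.
Prph: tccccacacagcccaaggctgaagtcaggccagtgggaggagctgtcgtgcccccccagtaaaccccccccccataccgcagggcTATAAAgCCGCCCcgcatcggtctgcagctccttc
Ina: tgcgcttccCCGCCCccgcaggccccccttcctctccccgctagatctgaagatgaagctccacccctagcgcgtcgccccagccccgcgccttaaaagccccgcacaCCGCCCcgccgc
Stmn3: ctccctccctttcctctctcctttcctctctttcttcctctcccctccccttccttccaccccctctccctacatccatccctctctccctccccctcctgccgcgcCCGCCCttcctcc
Uchl1: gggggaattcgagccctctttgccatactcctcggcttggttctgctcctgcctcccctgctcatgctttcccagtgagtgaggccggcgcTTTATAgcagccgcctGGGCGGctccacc
All 4 windows held GGGCGG on one strand or the other, which 23.7% of 33469 windows of this length do. TATAAA was found in those of Prph and Uchl1, and 6.66% of all windows hold it. The match in Prph lay 35 to 30 bases before the start, on the strand of the gene, and that in Uchl1 29 to 24 bases before it on the opposite strand. Prph and Uchl1, with both boxes, had different orders of levels. A match describes these letters only and not a bound factor.

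The light subunit Nefl (gene ID 83613), on which the other neurofilament subunits assemble, had signals of 698, 595 and 511 in rESC-RPC2, 319, 306 and 376 in rESC-RPC1, and 869.6, 901 and 616 in P-RPC, in order of replicate. All rESC-RPC1 arrays were below all others, and the rESC-RPC2 and P-RPC arrays overlapped. Nefl fell in rESC-RPC1 against P-RPC, with a log2 fold change of -1.24 (SE, the standard error, 0.17, adjusted p = 0.000125). In rESC-RPC2 it was -0.39 against P-RPC (SE 0.17, adjusted p = 0.064), with a 95% confidence interval of -0.77 to -0.02, and against rESC-RPC1 it was 0.85 (SE 0.17, adjusted p = 0.00221), under the fold minimum. The levels of Nefl thus ran from rESC-RPC1 through rESC-RPC2 to P-RPC, the upper pair not being separated by the test.

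A second probe set of Nefl placed rESC-RPC2 lower. It read 419.6, 367 and 422 in rESC-RPC2, 213, 228 and 352 in rESC-RPC1, and 1149, 1382 and 1043 in P-RPC, so that no array of either kind of rESC-RPCs came near P-RPC. By this probe set, fitted among all 17048 tested probe sets, Nefl fell in rESC-RPC2 against P-RPC (log2 fold change -1.56, SE 0.19, adjusted p = 4.10e-05) as well as in rESC-RPC1 (-2.20, SE 0.19, adjusted p = 3.87e-06). The lower level of Nefl in rESC-RPC1 was called by both probe sets, while its place in rESC-RPC2 depends on which of them is read.

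Nefm (gene ID 24588), the medium subunit, read 1619, 1677 and 2047 in rESC-RPC2, 898, 797 and 1119 in rESC-RPC1, and 1943, 1920.1 and 1331 in P-RPC. As for Nefl, rESC-RPC1 lay below all other arrays and rESC-RPC2 overlapped P-RPC. The log2 fold change of rESC-RPC2 against P-RPC was 0.05 (SE 0.17, adjusted p = 0.795), with a 95% interval of -0.33 to 0.44. Against rESC-RPC1 it was 0.93 in rESC-RPC2 (SE 0.17, adjusted p = 0.00131), and rESC-RPC1 was at -0.88 against P-RPC (SE 0.17, adjusted p = 0.0013), both just under the 2-fold minimum. Without rESC-RPC1 replicate 3, the highest of its group, Nefm was called in both, at 1.07 and -1.01, and without P-RPC replicate 3 it was called against P-RPC at -1.06.

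Nefh (gene ID 24587) encodes the heavy subunit, which in rodents appears later than the others as axons mature. Its probe set read 93.3, 60.5 and 70.0 in rESC-RPC2, 43.7, 28.0 and 11.1 in rESC-RPC1, and 43.1, 24.5 and 5.63 in P-RPC. The rESC-RPC2 arrays were above all others, but every value was under the detection threshold, so no fold change is given.

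Ina (gene ID 24503) encodes alpha-internexin, which neurons make early, before the neurofilament triplet. It read 5110.2, 5127 and 5212 in rESC-RPC2, 1928, 1677 and 1811 in rESC-RPC1, and 2899.8, 3169 and 2513 in P-RPC, and the 3 groups did not overlap. Its rise in rESC-RPC2 against rESC-RPC1, a log2 fold change of 1.51 (SE 0.09, adjusted p = 2.19e-06), was the largest of the 9 tested genes in this comparison by the probe set of highest mean. Against P-RPC rESC-RPC2 was at 0.85 (SE 0.09, adjusted p = 2.01e-05) and rESC-RPC1 at -0.66 (SE 0.09, adjusted p = 0.000141), both short of 2-fold. A second probe set gave 1.51, 0.97 and -0.54 for the same comparisons, with the groups in the same order and the same calls. The order of levels for Ina was rESC-RPC2, then P-RPC, then rESC-RPC1, and each step had an adjusted p under 0.05.

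Nefl was also set against Ina. The log2 ratio of Nefl to Ina within an array, set to 0 at the mean of P-RPC, was -1.01, -1.25 and -1.49 in rESC-RPC2, -0.74, -0.60 and -0.41 in rESC-RPC1, and 0.12, 0.05 and -0.17 in P-RPC. The groups did not overlap in any of the 3 comparisons. An exact two-sided permutation test gave p = 0.1 for each, the smallest that 3 arrays against 3 allow (adjusted p = 0.1 over 6 such tests). This ratio was chosen after its values were seen. Nefl was read here by its probe set of highest mean only, so the sizes hold for that probe set. By the second probe set Nefl was lower against P-RPC, at -1.56 in rESC-RPC2 and -2.20 in rESC-RPC1.

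Prph (gene ID 24688) encodes peripherin, an intermediate filament known mainly from peripheral and motor neurons and from subsets of central neurons, and is not the photoreceptor gene Prph2. It read 86.3, 76.6 and 77.3 in rESC-RPC2, 69.2, 70.2 and 138 in rESC-RPC1, and 799.6, 717 and 571 in P-RPC. All arrays of rESC-RPC2 and 2 of 3 of rESC-RPC1 were under the detection threshold, and the highest of the 6 arrays, at 138, was far below the lowest P-RPC array, at 571. In rESC-RPC2 the level of Prph was at least 5.62-fold under that of P-RPC, counted from the threshold. In rESC-RPC1, where replicate 3 alone was above the threshold, raising the other arrays to it gave a log2 fold change of -2.43. The true value under the threshold cannot be read. Since the filter favored this difference, no p-value is given for the comparisons of Prph with P-RPC. For rESC-RPC2 against rESC-RPC1 the test gave an adjusted p of 0.708, and both lay too low for a fold to be read.

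Gap43 (gene ID 29423), the growth-associated protein of extending axons, read 7661, 8152 and 7759 in rESC-RPC2, 2716, 4047 and 3812 in rESC-RPC1, and 5935, 5853 and 4584 in P-RPC. The groups did not overlap and stood in the order of Ina. Gap43 rose in rESC-RPC2 against rESC-RPC1, with a log2 fold change of 1.18 (SE 0.15, adjusted p = 0.000105), and against P-RPC it was at 0.54 in rESC-RPC2 (SE 0.15, adjusted p = 0.00825) and -0.64 in rESC-RPC1 (SE 0.15, adjusted p = 0.00316). Without rESC-RPC1 replicate 1, the lowest array, the rise was 0.9999 on the log2 scale and so was no longer called. Another probe set of Gap43 read between 1.0 and 15.7 on all 9 arrays, far under the threshold, and was not tested.

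Stmn2 (gene ID 84510) encodes SCG10, the stathmin of growth cones. Its signals were 11885, 12252 and 12272 in rESC-RPC2, 4775, 5738 and 4677 in rESC-RPC1, and 7247, 7008 and 5592 in P-RPC. Every rESC-RPC2 array was above all others, and rESC-RPC1 replicate 2 reached above the lowest P-RPC array. Stmn2 rose in rESC-RPC2 against rESC-RPC1, with a log2 fold change of 1.27 (SE 0.11, adjusted p = 1.00e-05). Against P-RPC it was at 0.88 (SE 0.11, adjusted p = 4.17e-05), which is 1.85-fold. A second probe set gave 1.26 for this comparison (SE 0.10, adjusted p = 1.64e-06) and 1.61 against rESC-RPC1, so that by it Stmn2 rose in rESC-RPC2 against both.

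Stmn3 (gene ID 29246), or SCLIP, read 8862, 8966 and 9085 in rESC-RPC2, 3588, 4163 and 3247 in rESC-RPC1, and 4914, 5531 and 4504 in P-RPC. It kept the order of Stmn2 with no overlap between groups. The log2 fold changes were 1.30 in rESC-RPC2 against rESC-RPC1 (SE 0.10, adjusted p = 5.87e-06), a rise, and 0.85 in rESC-RPC2 and -0.45 in rESC-RPC1 against P-RPC (SE 0.10 each, adjusted p = 3.33e-05 and adjusted p = 0.00281), which were under the fold minimum.

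Stmn4 (gene ID 79423), or RB3, was the exception among the stathmins. It read 4316, 4565 and 4394 in rESC-RPC2, 2441, 2446 and 2240.4 in rESC-RPC1, and 1958, 1905 and 1574 in P-RPC, so that P-RPC and not rESC-RPC1 was lowest. Stmn4 rose in rESC-RPC2 against P-RPC, with a log2 fold change of 1.29 (SE 0.09, adjusted p = 1.05e-06), and was at 0.90 against rESC-RPC1 (SE 0.09, adjusted p = 3.20e-05). In rESC-RPC1 it was at 0.40 against P-RPC (SE 0.09, adjusted p = 0.0035), the only one of the 9 with a positive log2 fold change there. Within an array, the log2 ratio of Stmn4 to Stmn2, set to 0 at the mean of P-RPC, was 0.40, 0.44 and 0.38 in rESC-RPC2, 0.90, 0.64 and 0.80 in rESC-RPC1, and -0.02, -0.01 and 0.04 in P-RPC. The groups did not overlap, at the smallest exact permutation p the design allows (two-sided, p = 0.1 in each of 3 comparisons), and this ratio too was chosen after its values were seen. Stmn2 was read here by its probe set of highest mean. By its second probe set Stmn2 was at 1.26 in rESC-RPC2 against P-RPC, close to the 1.29 of Stmn4. The distance between rESC-RPC2 and P-RPC in this ratio thus depends on the probe set.

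Uchl1 (gene ID 29545), the ubiquitin hydrolase PGP9.5 used as a stain for neurons, read 1940.1, 2001 and 2258 in rESC-RPC2, 832, 947 and 1012 in rESC-RPC1, and 1078, 976 and 1036 in P-RPC. The rESC-RPC2 arrays stood above all others, and rESC-RPC1 and P-RPC overlapped. Uchl1 rose in rESC-RPC2 against rESC-RPC1 (log2 fold change 1.15, SE 0.10, adjusted p = 1.23e-05) and against P-RPC (1.00, SE 0.10, adjusted p = 1.21e-05), which made it the only one of the 9 called higher in rESC-RPC2 than in each other group, apart from Stmn2 by its second probe set. Over all tested genes 2.87% were called so, and 4.50% and 1.07% were called higher and lower in rESC-RPC1 than in each other group, which held for none of the 9. The call against P-RPC was at the 2-fold limit and was lost without rESC-RPC2 replicate 3 (0.94) and without P-RPC replicate 2 (0.96). In rESC-RPC1 against P-RPC it was at -0.15 (SE 0.10, adjusted p = 0.218), with a 95% interval of -0.37 to 0.07.

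**Figure D2:**
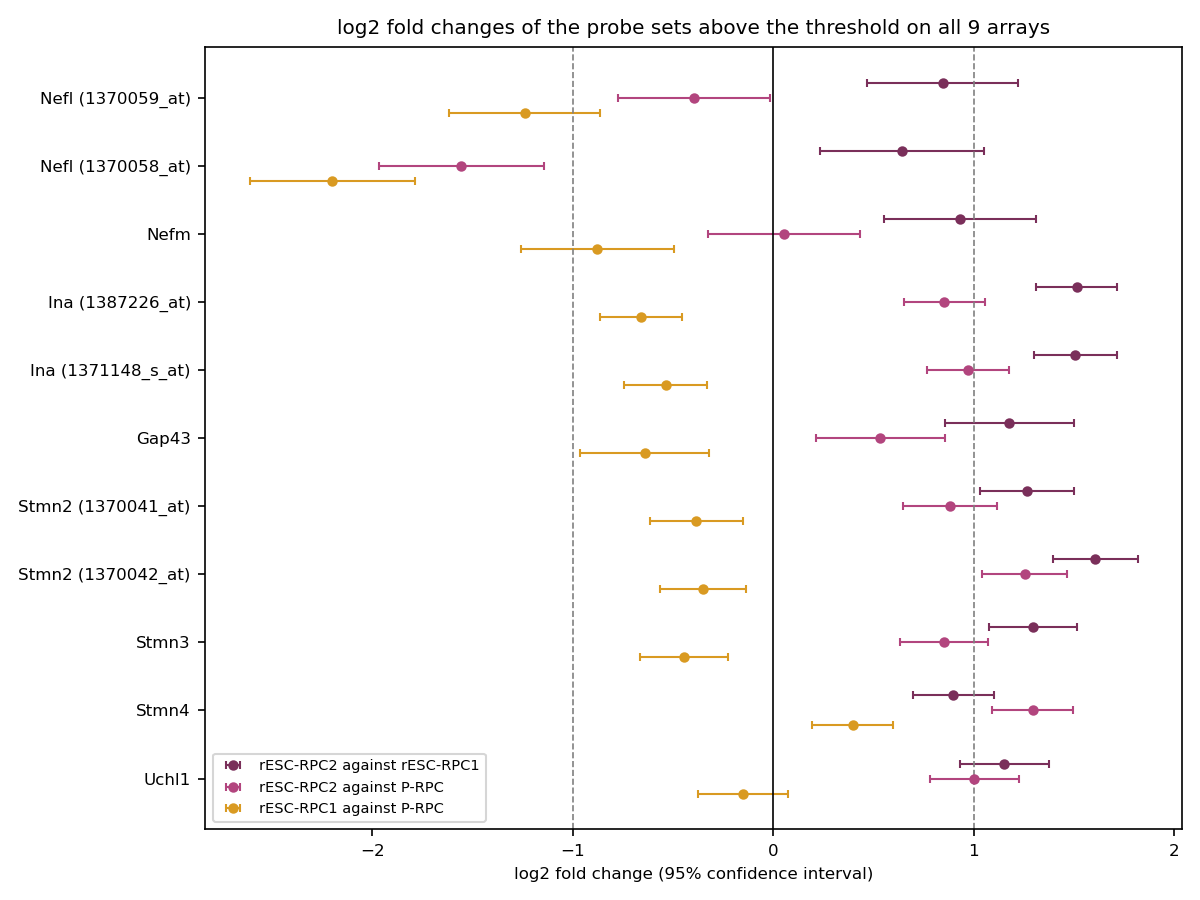
Log2 fold changes with 95% confidence intervals of the 11 probe sets above the threshold on all 9 arrays, which leaves out Prph, for rESC-RPC2 against rESC-RPC1, rESC-RPC2 against P-RPC and rESC-RPC1 against P-RPC, with dashed lines at a 2-fold change. All 11 are above 0 for rESC-RPC2 against rESC-RPC1, and for rESC-RPC1 against P-RPC only Stmn4 is, at 0.40.

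Counted together, 5 of the 9 tested genes were called higher in rESC-RPC2 than in rESC-RPC1 and 0 lower, where 5.02% and 9.25% of all 9956 tested genes were called higher and lower. At an unadjusted p under 0.05 in limma the lower count was also 0, and by the methods' t-test it was 0. The arrays of rESC-RPC2 lay above all those of rESC-RPC1 for 8 of the 9, and for 24.2% of all genes, with 29.6% below and so 53.9% not overlapping. The median log2 fold change of the 9 was 1.15, and that of all genes -0.03. In rESC-RPC2 against P-RPC 2 were called higher (Stmn4 and Uchl1) and 1 lower (Prph), where 10.7% and 13.0% of all genes were, with 6 of the 9 above all P-RPC arrays and 1 below (35.2% and 37.7% of all genes, 72.9% not overlapping). The medians were 0.85 and -0.02. In rESC-RPC1 against P-RPC 0 were called higher, also by the methods' t-test and with Stmn4 alone higher when no fold minimum is set, and 2 lower (Nefl and Prph), where 12.0% and 9.56% of all genes were. There the medians were -0.64 and -0.01, and 6 of the 9 lay below all P-RPC arrays and 1 above, where 33.7% and 32.7% of all genes did (66.4% not overlapping). The 3 comparisons share arrays, so their values are set side by side only. These values were known when the genes were chosen, so the shares of called genes are given as a description. Prph is among the genes counted lower against P-RPC, though the filter favored its difference.

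Several of the genes deviated together in single arrays. P-RPC replicate 3 was the lowest P-RPC array for 8 of the 9 tested genes, all but Uchl1, where it is the lowest for 31.9% of all genes. The median deviation of the 9 from their group mean was -0.23 on the log2 scale in this array, and that of all genes was 0.01. In rESC-RPC1, replicate 3 was the highest for Nefl, Nefm, Prph and Uchl1, 4 of the 9, and for 37.8% of all genes. It was the lowest for Stmn2, Stmn3 and Stmn4, 3 of the 9, and for 40.1% of all genes. The shares of the 9 are near those of all genes, so no joint deviation is read from this array. In rESC-RPC2, replicate 1 was the lowest for 7 of the 9, where it is for 34.8% of all genes, with a median deviation of -0.03. These arrays lay within 0.03 of the mean for Ina, Stmn2 and Stmn3 but between -0.22 and 0.23 for Nefl.

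**Figure D3:**
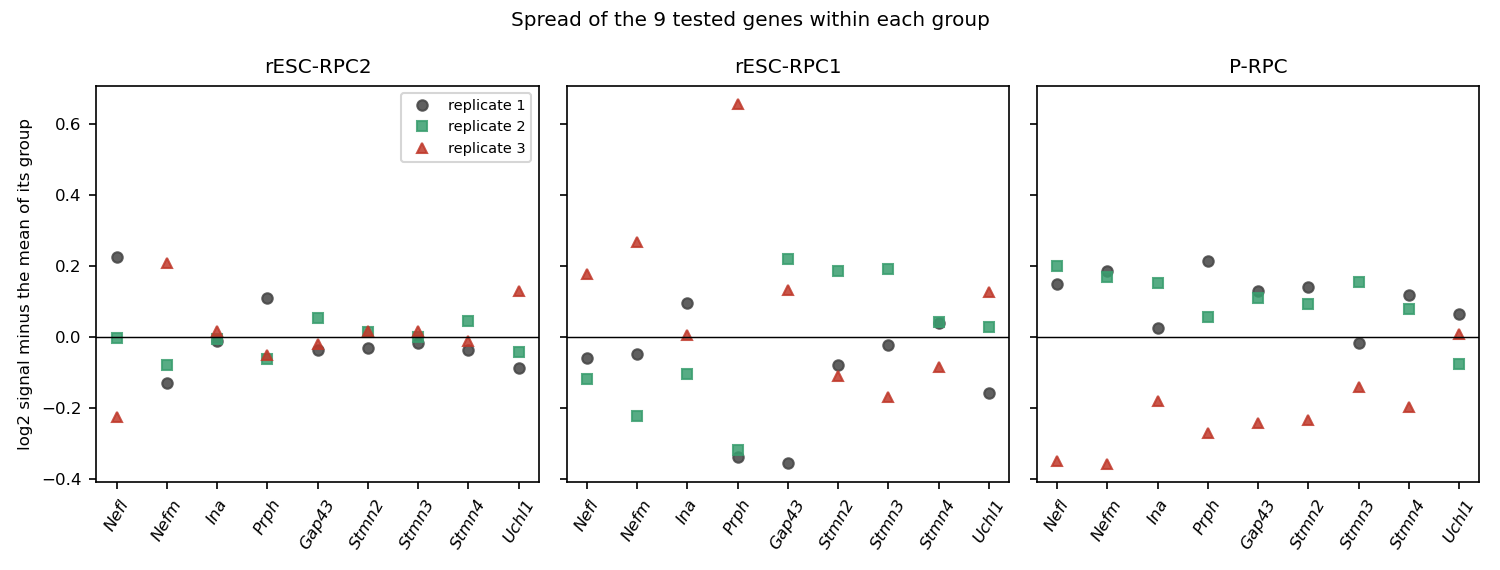
Log2 signal of the 9 tested genes minus the mean of their group, by replicate, for rESC-RPC2, rESC-RPC1 and P-RPC. Replicate 3 of P-RPC, drawn as triangles, lies at or below -0.14 for all genes but Uchl1, and the rESC-RPC2 points of Ina, Stmn2 and Stmn3 lie close to 0.

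Markers of the cells that such genes come from were set beside these values. Of 12 retinal ganglion cell markers 8 were tested. Isl2, Pou4f1, Eomes and Nrn1 passed the filter through P-RPC, where they are high, so the filter itself favored a difference. Of the other 4, Slc17a6, Rbpms and Sncg fell in both kinds of rESC-RPCs against P-RPC, and Thy1 fell in rESC-RPC2 (-1.15) and was at -0.07 in rESC-RPC1. For all 8 on the array, the summed signal was 1125 to 1307 in rESC-RPC2, 988 to 1207 in rESC-RPC1 and 11806 to 14739 in P-RPC. Sncg, gamma-synuclein of ganglion cells, was at -6.08 on the log2 scale in rESC-RPC2 (adjusted p = 1.89e-09) and at -5.73 in rESC-RPC1 (adjusted p = 3.01e-09). It read 124 to 127 in rESC-RPC2 and 129 to 194 in rESC-RPC1, close to the threshold, so background limits these sizes. In P-RPC the sum came mostly from Sncg, with a mean of 8484. Within P-RPC the sum was lowest in replicate 3, at 11806 against 14012 and 14739, the array in which 8 of the 9 genes were lowest. This array also had the lowest P-RPC sums of pan-neuronal, horizontal cell and photoreceptor markers, at 12713, 3269 and 7257. Its sums of progenitor and astrocyte markers were the highest of P-RPC, at 56137 and 14492. The part of ganglion cells in these results was not tested. Of 5 horizontal cell markers 4 were tested. Onecut1 and Onecut2 passed the filter through P-RPC and 1 array of rESC-RPC2, so the filter itself favored a difference. Prox1 fell and Calb1 rose in both kinds of rESC-RPCs against P-RPC. Their summed signal was 2061 to 2305 in rESC-RPC2, 1052 to 2348 in rESC-RPC1 and 3269 to 3737 in P-RPC. Of 12 peripheral and motor neuron markers, the neurons best known for Prph, 9 were on the array, and only Th passed the filter, through rESC-RPC2. Their summed signal was 313 to 532 in rESC-RPC2, 273 to 362 in rESC-RPC1 and 249 to 332 in P-RPC, where each of the 9 was under the threshold on every array.

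Pan-neuronal markers were mostly higher in rESC-RPC2 than in rESC-RPC1. Of 11 tested, 9 rose in rESC-RPC2 against rESC-RPC1 and 2 were not called (median 1.40, or 1.38 with genes under the threshold at their bound). Syt1, 1 of the 9, passed the filter through rESC-RPC2 alone, so the filter itself favored its rise. The others included Snap25, a protein of synaptic release, at 2.38 (adjusted p = 2.50e-06), and Nsg1, an endosomal protein of neurons, at 1.49 (adjusted p = 1.59e-06). Against P-RPC 5 rose in rESC-RPC2 and 6 were not called (median 0.88), with Rbfox3, the NeuN antigen, at 1.54. In rESC-RPC1 Rbfox3 rose, Snap25 and Syp fell and 8 were not called (median -0.34). Their summed signal was 23177 to 27147 in rESC-RPC2, 7832 to 11560 in rESC-RPC1 and 12713 to 13923 in P-RPC, an order shared with Ina, Gap43, Stmn2 and Stmn3. Astrocyte markers ran the other way, with 4 of 5 tested lower in rESC-RPC2 than in rESC-RPC1, of which S100b and Aqp4 passed the filter mainly through rESC-RPC1. The summed signals of these markers were 7104 to 8959 in rESC-RPC2, 15999 to 32303 in rESC-RPC1 and 12839 to 14492 in P-RPC. In P-RPC the sum came mostly from Gja1 and Slc1a3, with means of 8536 and 4843. Gfap, S100b and Aqp4 were under the threshold on all P-RPC arrays. The part of neurons and glia in the signals of the 10 genes was not tested.

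Of the other genes for axon growth and microtubule proteins, 22 in all, 20 were tested. In rESC-RPC2 against rESC-RPC1 7 rose and 13 were not called (median 0.72), and those that rose included Basp1, a growth cone protein related in function to GAP-43 (1.19, adjusted p = 2.37e-06), Crmp1, a collapsin response mediator (1.30), Mapt, the microtubule protein tau (1.35), and Tubb3, neuronal beta-tubulin (1.45). Against P-RPC 9 rose in rESC-RPC2 and 11 were not called (median 0.96), with Mapt at 1.87, Dpysl5 at 1.41, Dclk1 at 2.16 and Fez1 at 1.93. In rESC-RPC1 Dclk1, Dpysl3 and Fez1 rose against P-RPC, Dpysl4 fell and 16 were not called (median -0.02). Stmn1, the stathmin of dividing cells and of neurons alike, was not called in any comparison, with a log2 fold change of 0.40 in rESC-RPC2 against rESC-RPC1 (adjusted p = 6.50e-05), 0.02 in rESC-RPC2 against P-RPC and -0.38 for rESC-RPC1 against P-RPC (adjusted p = 4.79e-05).

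Among other intermediate filaments 9 of 11 were tested. In rESC-RPC2 against rESC-RPC1 3 fell and 6 were not called (median -0.28). Gfap, the filament of astrocytes, fell by 2.01 on the log2 scale (adjusted p = 0.00015), and Synm (synemin) and Krt19, a keratin, fell too. Against P-RPC 4 rose in rESC-RPC2 and 1 fell, and 5 rose in rESC-RPC1 and 2 fell. Gfap and Synm were under the threshold on all P-RPC arrays, Krt18 on all rESC-RPC2 and rESC-RPC1 arrays, and Krt19 on all rESC-RPC2 arrays. These genes passed the filter through the groups where they are high, so the filter itself favored a difference from the groups under the threshold. This did not always give a call, Krt18 being at -0.83 in rESC-RPC2 against P-RPC. Gfap exceeded P-RPC by at least 7.48-fold in rESC-RPC2 and by at least 30.1-fold in rESC-RPC1, and Vim (vimentin) rose in both, by 1.29 in rESC-RPC2 and 1.40 in rESC-RPC1 on the log2 scale. Nes (nestin), the filament of neural progenitors, rose in rESC-RPC1 (1.02) and was at 0.74 in rESC-RPC2. Of the REST repressor complex, which silences neuronal genes outside neurons, 6 of 7 genes were tested and only Rcor2 was called, lower in rESC-RPC2 than in P-RPC (-1.79, adjusted p = 3.02e-05), while Rest was under the threshold on all 9 arrays. Of 7 genes for other ubiquitin hydrolases and ubiquitin 5 were tested and none reached a 2-fold change in any comparison, the related Uchl3 being at 0.78 in rESC-RPC2 against rESC-RPC1 (adjusted p = 4.61e-05) and 0.29 against P-RPC (adjusted p = 0.0107).

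**Figure D4:**
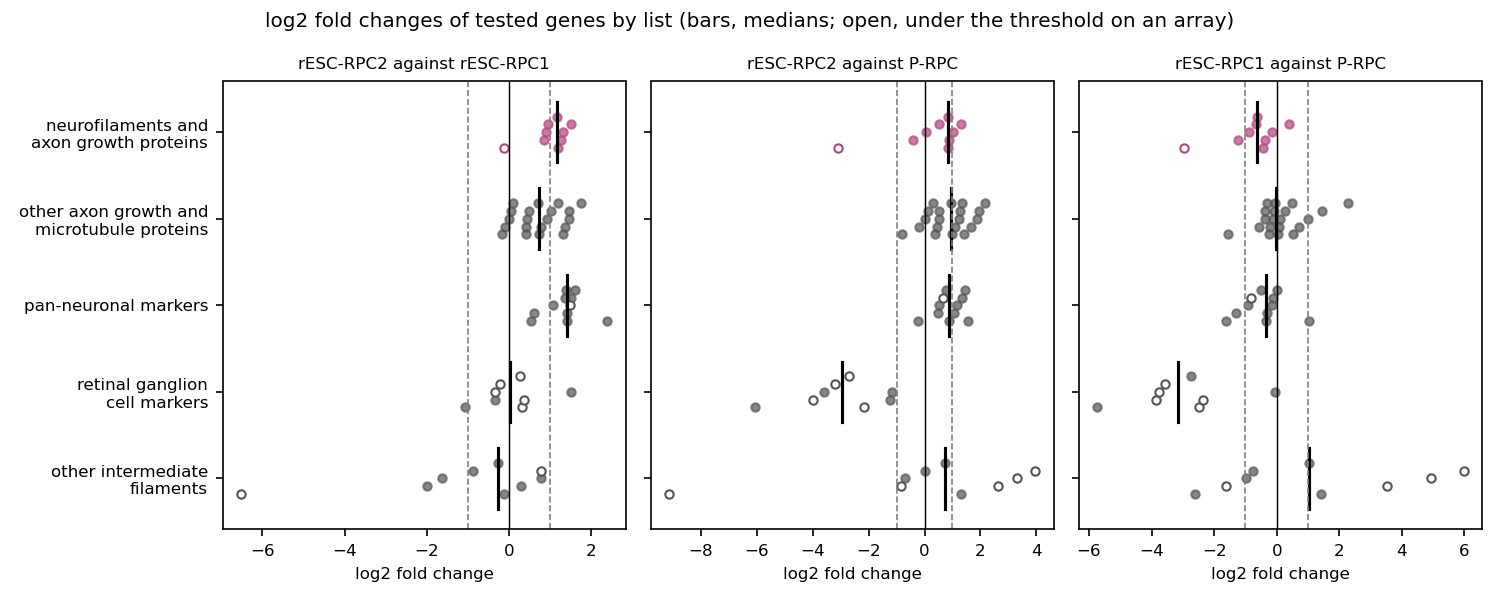
Log2 fold changes of the tested genes by list, 1 point per gene, open where an array of either group was under the threshold so that the value is no readable fold, with a bar at the median and dashed lines at a 2-fold change, for the 3 comparisons. The medians of the neurofilament and axon growth genes and of the pan-neuronal markers are 1.15 and 1.40 in rESC-RPC2 against rESC-RPC1, and several retinal ganglion cell markers are open points.

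Over the whole series, replicates of a group correlated at r = 0.95 to 0.99 across genes and arrays of different groups at 0.74 to 0.91. Lens genes set P-RPC replicate 1 apart, with a summed signal of 130635 there and of 1858 and 5373 in the other P-RPC arrays. Without this array the calls of all 9 tested genes were the same. Photoreceptor markers were detected on all arrays of P-RPC for 6 of 8 on the array and on all arrays of either kind of rESC-RPCs for none, and Pax6, a factor of retinal progenitors, averaged 84.7 in rESC-RPC2 and 118 in rESC-RPC1, where only 1 array passed the threshold, and 13972 in P-RPC. Of 8 progenitor markers 6 were detected on all arrays of rESC-RPC2, 6 on all of rESC-RPC1 and 8 on all of P-RPC. Against P-RPC 1 was called higher and 6 lower in rESC-RPC2, and 1 higher and 5 lower in rESC-RPC1. Pax6 and Hes5 passed the filter mainly through P-RPC. The summed signal of the 8 was 19596 to 23747 in rESC-RPC2, 22325 to 31446 in rESC-RPC1 and 50085 to 56137 in P-RPC.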

How the data were processed

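RNA from 3 independent experiments per group was hybridized to 1 array per sample. Whether these were separate animals or separate cultures is not stated further, so p-values measure the spread between these samples. Deposited per array are linear intensities, which the authors obtained after background removal by the MAS 5.0 algorithm in the Gene Spring software (MAS5 version not given in the sources used here). The mean after trimming 2% from each end was 497.7 to 498.04 without the 57 control probe sets. Values under 1 were set to 1 before log2 was taken. All columns were used. Of 31042 probe sets, 17048 reached the 50th percentile of all values (123) on at least 3 of 9 arrays, and 9956 genes with 1 symbol were tested by their probe set of highest mean. Arrays do not allow levels of different probe sets to be compared, and the number of arrays limits the precision.

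The fit used R 4.3.3 and limma 3.58.1 (lmFit, eBayes with a variance trend) over all 9 arrays with no covariate and Benjamini-Hochberg adjustment. Other probe sets of the genes were fitted among all 17048. Where all arrays of a group were under the threshold, a fold is a lower bound from it. Data were simulated for rESC-RPC1 against P-RPC with 9956 genes and independent normal noise. In them 100 genes were changed by 1.5 and 100 by 3 on the log2 scale. Of these 91% and 96% were recovered, with 2 false calls among 9756 unchanged genes. In the deposited data 21.5% of genes were called and genes can deviate together within an array, so these rates need not hold there. Replicate numbers were treated as unpaired (r of deviations -0.04 to 0.27, over 0.1 in 1 of 9 pairs). The text names the 10 genes with all probe sets and, per list and comparison, up to 4 called genes of smallest adjusted p and any that a statement turns on, which were chosen after their values were seen. The genes and lists were chosen with earlier results of these data known. The alternatives were other scalings, filters, floors, probe sets, thresholds and tests, a replicate block, and leaving out each array.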

Additional observations from a re-analysis of the deposited data

How the results depend on the processing

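The counts named here are those of the 9 tested genes called in each comparison unless all genes are named. The 2 genes called higher in rESC-RPC2 against P-RPC became 1 under quantile normalization and with a pseudocount of 16, where Uchl1 was at 0.98 and 0.99. With a stricter filter (6 of 9 arrays) Prph was no longer tested, so the lower counts became 0 in rESC-RPC2 and 1 in rESC-RPC1. The same count of higher genes became 3 with no filter, by Nefh (adjusted p = 0.0446), whose values are all under the threshold, and 3 by the probe set of largest variance, by Stmn2 (1.26). By that probe set 2 were lower in rESC-RPC2 against P-RPC, Nefl (-1.56) and Prph. At a fold change of at least 4, 0 were higher in rESC-RPC2 against rESC-RPC1 and against P-RPC and 1 (Prph) was lower in rESC-RPC1, out of 284, 799 and 816 called genes. Prph was lower in rESC-RPC2 against P-RPC too, by at least 5.62-fold counted from the threshold. With no fold minimum 8 were higher in rESC-RPC2 against rESC-RPC1, 6 against P-RPC, and 1 was higher and 7 lower in rESC-RPC1 against P-RPC, out of 4805, 6292 and 5989 called genes. Over probe sets 2422, 4066 and 3732 were called. Leaving out 1 array, the genes called higher in rESC-RPC2 numbered 4 to 6 against rESC-RPC1 and 1 to 2 against P-RPC, and those called lower in rESC-RPC1 against P-RPC 2 to 3. Uchl1 lost its call without rESC-RPC2 replicate 3 or P-RPC replicate 2, Gap43 lost it without rESC-RPC1 replicate 1, and Nefm gained one without rESC-RPC1 replicate 3 or P-RPC replicate 3. With the replicate number as a block 1426 genes were called for rESC-RPC2 against rESC-RPC1, 2363 for rESC-RPC2 against P-RPC and 2148 for rESC-RPC1 against P-RPC, where the fit without the block called 1421, 2361 and 2144, and no call of the 9 genes changed. No fold change of the 9 genes changed sign after being called. Nefh and low values of Prph are limited by background signal.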
